A study of Mus musculus with 6 samples.

Results

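Clustered limb peaks are the ChIRP-seq peaks of *LncRNA-HIT* in the mouse limb that have another limb peak within 25 kb, measured between peak edges. Of 2856 limb peaks on chromosomes 1 to 19 and X, 621 met this rule, and chaining neighbours together gave 247 clusters. The whole limb list holds 2880 peaks, and the limb and glial lists together hold 5799. No minimum score was applied. The members were chosen by the measured positions of the peaks, so the number of clusters, the cluster sizes and the gaps within them are given as a description. Without a neighbour were 2235 limb peaks.

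The study used chromatin of the autopod, the distal region dissected from E 11.0 limbs of Swiss Webster mice, pooled from about 2000 buds per assay. The control was chromatin of a line of mouse glia in which the RNA is not expressed. The labels give brain as the source of the glial samples and repeat the strain and stage of the limb samples for them. Each tissue had 1 library from an odd probe set, 1 library from an even probe set and 1 input library. The odd and even libraries of a tissue were merged before peaks were called, so each tissue has 1 list and no replicates, and no difference below was tested. The read depth of a peak was not examined, because signal tracks were not used.

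In ChIRP, biotin-labelled DNA probes capture an RNA together with the chromatin it contacts, and the captured DNA is sequenced. Odd and even probe sets share no probe, so a contact of the RNA should be found by both, whereas DNA that binds a probe directly should be found by the set that holds it. *LncRNA-HIT* is transcribed between *Hoxa11* and *Hoxa13* in the distal limb mesenchyme, the tissue from which the cartilage of the digits condenses. Bone morphogenetic proteins (BMPs), their receptors and cell adhesion molecules take part in that condensation.

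Peaks of 1 cluster share their place on the chromosome, and in a few clusters they share their sequence as well. Sequence was compared between members of the same cluster, and a peak was counted when it held at least 5 words of 16 bases that another member held on either strand. This was the case for 38 peaks in 6 clusters. In the other 241 clusters no members shared this much sequence. The next sequences are the longest runs common to peaks of the same cluster at *Sag* (arrestin of the retina, chosen here after its values were seen) and at *Tcte2* (a t-complex gene), and a run common to a peak of the chromosome 9 cluster and a peak of the chromosome 2 cluster. They are shown because they let a reader see what kind of sequence such peaks have in common. Bases are those of mm9, and the capitals mark the shared run.
*Sag*, peak 2, plus strand, chr1:89718885-89718974: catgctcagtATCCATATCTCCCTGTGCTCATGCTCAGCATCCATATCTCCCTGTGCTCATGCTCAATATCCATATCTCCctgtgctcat
*Sag*, peak 3, plus strand, chr1:89719378-89719467: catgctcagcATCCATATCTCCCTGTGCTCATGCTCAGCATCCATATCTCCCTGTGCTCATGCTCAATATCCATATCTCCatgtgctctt
*Tcte2*, peak 2, plus strand, chr17:13743661-13743754: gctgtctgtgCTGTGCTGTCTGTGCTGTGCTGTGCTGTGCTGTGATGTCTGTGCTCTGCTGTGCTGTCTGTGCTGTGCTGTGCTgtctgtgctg
*Tcte2*, peak 3, plus strand, chr17:13745077-13745170: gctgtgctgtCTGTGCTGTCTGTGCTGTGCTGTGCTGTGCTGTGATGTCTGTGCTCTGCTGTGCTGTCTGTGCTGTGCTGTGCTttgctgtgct
Chromosome 9, peak 1, plus strand, chr9:3000518-3000636: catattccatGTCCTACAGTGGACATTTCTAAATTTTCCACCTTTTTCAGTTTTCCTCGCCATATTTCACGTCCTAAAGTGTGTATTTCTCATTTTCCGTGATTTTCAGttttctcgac
Chromosome 2, peak 7, minus strand, chr2:98507053-98507171: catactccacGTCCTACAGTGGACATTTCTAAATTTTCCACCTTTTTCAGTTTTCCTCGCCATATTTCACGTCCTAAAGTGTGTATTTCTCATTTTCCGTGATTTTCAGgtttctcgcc

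The run common to the *Sag* peaks is 70 bases long and repeats the same short phrase along its length. The run at *Tcte2* is 74 bases long, and CTGTG recurs along it. The chromosome 9 and chromosome 2 clusters share a run of 99 bases although they lie on different chromosomes, and 3 of the 8 chromosome 2 peaks shared at least 5 of the 16-base words with a chromosome 9 peak. Within the chromosome 9 cluster alone the longest common run was 280 bases.

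Clusters without such shared sequence include those at *Elmo1*, *Bmpr1b* and *Ncam1*, whose strongest peaks are shown next. Each is shown as the central 200 bases on the plus strand. Capitals would mark bases that belong to a 24-base word found more than 1 time in the genome, and none of the 200 bases of any of them does. Over the whole peak the share of such words was 9.68% at *Elmo1* and 0 at the other 2, and in the other peaks of the *Elmo1* cluster it reached 29.0%. *Elmo1* encodes an adaptor that activates the small GTPase Rac in cell migration and engulfment, *Bmpr1b* a type I BMP receptor required for digit cartilage, and *Ncam1* a cell adhesion molecule found on condensing mesenchyme.
*Elmo1*, peak 1, plus strand, chr13:20505636-20505835: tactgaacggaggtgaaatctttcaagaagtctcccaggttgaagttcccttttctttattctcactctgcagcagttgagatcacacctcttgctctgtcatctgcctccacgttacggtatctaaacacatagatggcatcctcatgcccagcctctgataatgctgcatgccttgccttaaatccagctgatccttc
*Bmpr1b*, peak 4, plus strand, chr3:141507026-141507225: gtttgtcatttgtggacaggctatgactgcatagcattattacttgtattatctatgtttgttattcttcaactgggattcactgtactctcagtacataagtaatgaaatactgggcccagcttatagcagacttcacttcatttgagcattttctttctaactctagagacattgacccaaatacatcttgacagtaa
*Ncam1*, peak 2, plus strand, chr9:49493786-49493985: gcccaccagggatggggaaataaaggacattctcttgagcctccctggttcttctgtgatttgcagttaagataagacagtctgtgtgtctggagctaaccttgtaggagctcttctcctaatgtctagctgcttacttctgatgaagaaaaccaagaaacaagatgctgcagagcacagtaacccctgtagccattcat

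How many peaks lay close together was set beside even random placement of the same peaks on the same chromosomes. The 621 clustered peaks are 21.7% of the limb peaks (95% Wilson interval 20.3 to 23.3, which covers counting error only). Intervals of this share treat peaks as independent, but a clustered peak always has a clustered neighbour, so they are too narrow. Even placement gives 162 peaks, or 5.68%, so the observed count was 3.83 times the count under even placement. That ratio depends on the limit: it was 7.86 with a limit of 10 kb, 2.34 with 50 kb and 1.63 with 100 kb, and 7.68 when only peaks at the threshold of the study (p of 5.9e-57 or smaller) were kept. The even placement count comes from a formula that uses the number and width of the peaks and chromosome length after removal of unknown bases, and it leaves in the stretches where reads cannot be placed uniquely. The glial list, under the same rule, had 779 clustered peaks of 2881 (27.0%, interval 25.4 to 28.7) in 306 clusters, or 4.60 times the count under even placement. Clustering of this degree was therefore present in the list of the cell line that lacks the RNA, where the share was higher than in the limb.

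The clusters were mostly small. Pairs made up 187 of the 247 limb clusters and held 374 of the 621 peaks. There were 41 clusters of 3 peaks, 13 of 4, 2 of 5 and 1 of 6, and the 3 largest held 8, 18 and 30 peaks. The median cluster spanned 5.48 kb from the first to the last base, with a range from 0.926 to 65.1 kb. In the glial list 227 of 306 clusters were pairs, and the largest held 30 and 23 peaks.

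Neighbours lay far closer than the limit of 25 kb. The 374 gaps within limb clusters had a median of 2210 bp (quartiles 722 and 6636 bp), and the smallest was 72 bp. Of these gaps 122 were 1 kb or shorter, against 3.34 under even placement, which is 36.5 times as many. From 1 to 5 kb there were 136 gaps against 13.3, and from 5 to 10 kb there were 56 against 16.6. Between 10 and 25 kb the 60 gaps stood against 49.1, a ratio of 1.22, so the outer part of the window held few gaps beyond even placement. Without the 3 largest clusters 89 gaps were 1 kb or shorter and 58 lay between 10 and 25 kb. Glial gaps were spread alike, with a median of 2146 bp and 31.9% of them at 1 kb or less against 32.6% in the limb.

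**Figure D1:**
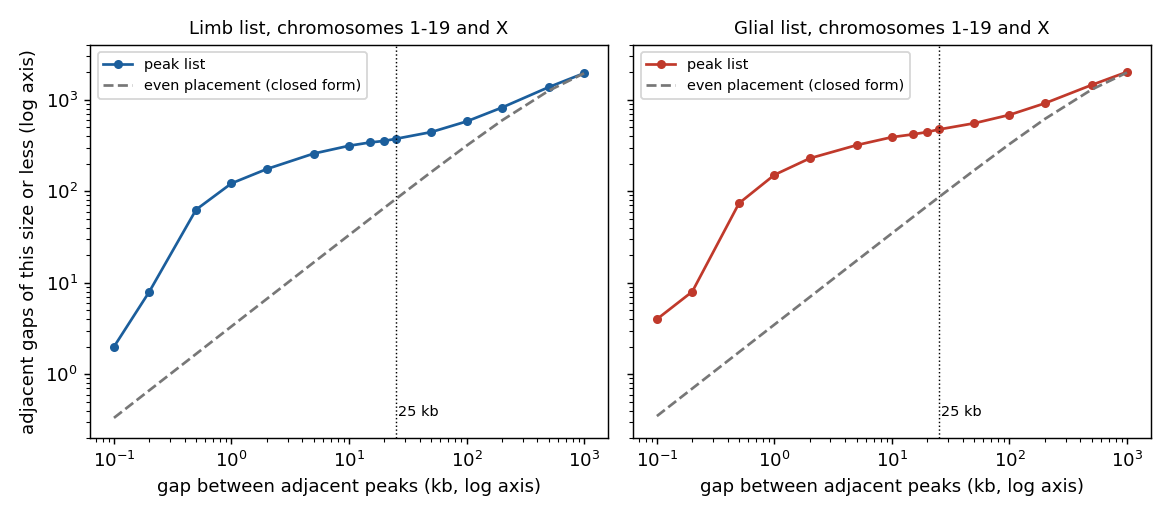
Number of gaps between adjacent peaks up to a given size (both axes are logarithmic) in the limb list (left) and the glial list (right), with the number that even random placement gives as a dashed line. Both lists run above the dashed line from the shortest gaps to beyond 100 kb and meet it near 1000 kb, where the limb list had 1949 gaps against 1944.

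At the limit of the rule, the widest gap that was still counted was 24242 bp, between 2 peaks on chromosome 1 with −log10(p) of 77.4 and 8.91. The protein-coding gene nearest to their cluster was *Igfbp5*, at 54.0 kb. The narrowest gap that was not counted was 25245 bp, between 2 peaks on chromosome 11 with −log10(p) of 37.6 and 35.9. Here −log10(p) is the score that the peak caller gave each peak against the input library, and a larger value is a stronger peak.

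The share of clustered peaks was not the same on every chromosome. It was highest on chromosomes X, with 22 of 61 peaks (36.1%, interval 25.2 to 48.6), and 11, with 75 of 208 (36.1%, 29.8 to 42.8), and on chromosome 9 it was 60 of 172 (34.9%, 28.2 to 42.3). These clustered peaks come from 7 clusters on X, 19 on chromosome 11 and 18 on chromosome 9. The intervals treat peaks as independent and are therefore too narrow. Leaving out the 3 largest clusters lowered chromosome 11 to 45 of 178 peaks (25.3%) and chromosome 9 to 42 of 154 (27.3%), whereas none of the 3 lies on X. On X even placement gives 1.83%, because the chromosome holds few peaks for its length. Chromosome 16 was lowest, with 5 of 104 peaks (4.81%, 2.07 to 10.8) against 5.28% under even placement.

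**Figure D2:**
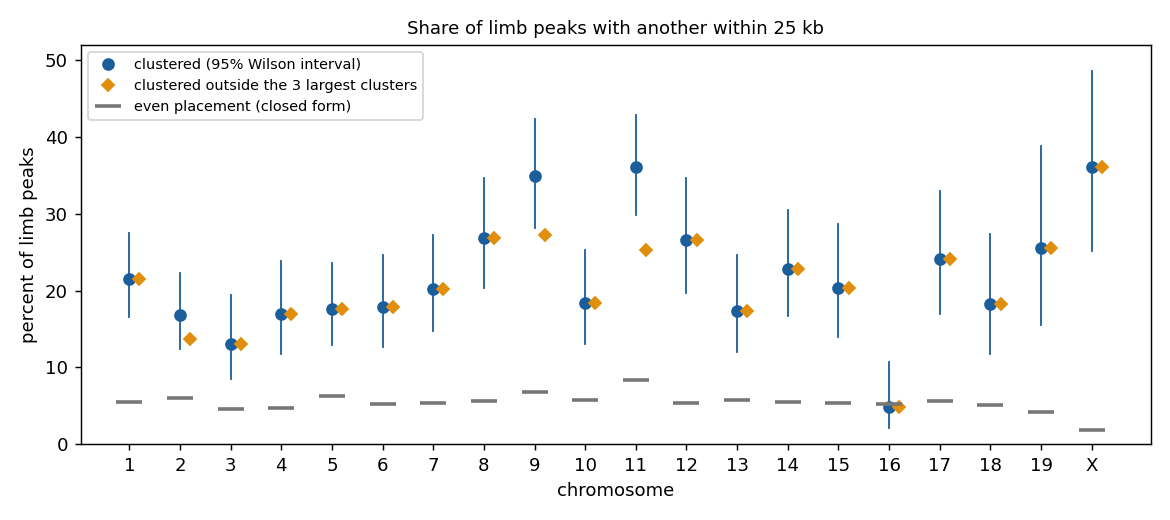
Percent of limb peaks with another limb peak within 25 kb on each chromosome (points, with the 95% Wilson interval as a line), the same with the peaks of the 3 largest clusters taken out of both the count and the total (diamonds), and the percent under even random placement (grey bars). Chromosomes 9, 11 and X are highest at 34.9%, 36.1% and 36.1%, and chromosome 16 at 4.81% lies at the level of even placement.

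The 3 largest clusters stood apart from the rest. The largest, 30 peaks over 65.1 kb of chromosome 11 (3032871 to 3097977), covers *Sfi1*, a centrin-binding gene of the centrosome, and the 3′ end of *Drg1*, which encodes a GTP-binding protein. The lowest −log10(p) was 6.22, the median 51.1 and the highest 252, and 11 of its peaks reached the threshold of the study (p of 5.9e-57 or smaller, −log10(p) of 56.2). Of the 30 peaks 18 shared 1 bp or more with a peak of the glial list, and 13 overlapped an exon. Only part of the sequence was repeated in mm9: a median of 5.97% of the 24-base words of these peaks occurred more than 1 time in the genome, with a range from 0 to 35.6%, and 9 of the 30 peaks shared words with another. Copies missing from mm9 would not be counted in this or any other share of repeated words.

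The second, 18 peaks over 38.6 kb at the start of the chromosome 9 sequence (2999821 to 3038402), covers 12 gene models, *Gm10722*, *Gm11168*, *Gm10721*, *Gm10720*, *Gm10719*, *Gm11167*, *Gm10718*, *Gm10717*, *Gm10716*, *Gm10106*, *Gm17535* and *Gm10715*. It had the highest summed −log10(p) of all clusters, 2284, and 13 of 18 peaks were at the study threshold. Repeated words made up between 86.4% and 100% of each peak, and 16 of the 18 peaks overlapped a glial peak. All 18 shared words with another peak of the cluster.

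The third, 8 peaks over 48.5 kb of chromosome 2 (98459923 to 98508423), covers *Gm10801* and *Gm10800*. Its strong peaks were numbers 4 to 7 from the left, with −log10(p) of 310, 137, 86.4 and 310, and these 4 overlapped glial peaks. The other 4 had −log10(p) of 9.43, 27.4, 9.86 and 8.73 and overlapped none.

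At each of these places the glial list held a cluster as well. There the glial peaks numbered 30 at *Sfi1* (summed −log10(p) of 2683 against 1788 in the limb), 23 on chromosome 9 (2105 against 2284) and 4 on chromosome 2 (865 against 899). The lists were called separately, so these sums are given side by side without a comparison of strength. Over the whole genome, 9 of the 247 limb clusters overlapped the span of a glial cluster, among them the cluster at *Tcte2*, where the limb had 3 peaks and the glial list 2.

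Most of the glial overlap of clustered peaks lay in these 3 clusters. Of the 621 clustered limb peaks, 48 overlapped a glial peak (7.73%, interval 5.88 to 10.1), against 3.12% of all 2856 limb peaks and 1.83% of those without a neighbour (1.36 to 2.48). The 3 largest clusters held 38 of the 48. Among the 565 peaks of the other 244 clusters, 10 overlapped a glial peak (1.77%, 0.964 to 3.23), which is within the interval of peaks without a neighbour. In the 16 clusters of 4 to 6 peaks, 0 of 68 peaks overlapped a glial peak, and the spans of these clusters held 0 glial peaks. The count of 0 allows a share of up to 4.41% when its limit is taken as 3 peaks (the Wilson upper limit is 5.35%). Both limits treat peaks as independent, but the 68 peaks come from 16 clusters, so the limits may be too low. Near the clusters, without overlap, a glial peak lay within 25 kb of 57 clustered peaks (9.18%, 7.15 to 11.7) and of 122 peaks without a neighbour (5.46%, 4.59 to 6.48), against 6.27% of all limb peaks, and without the 3 largest clusters the first share was 7.08%.

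**Figure D3:**
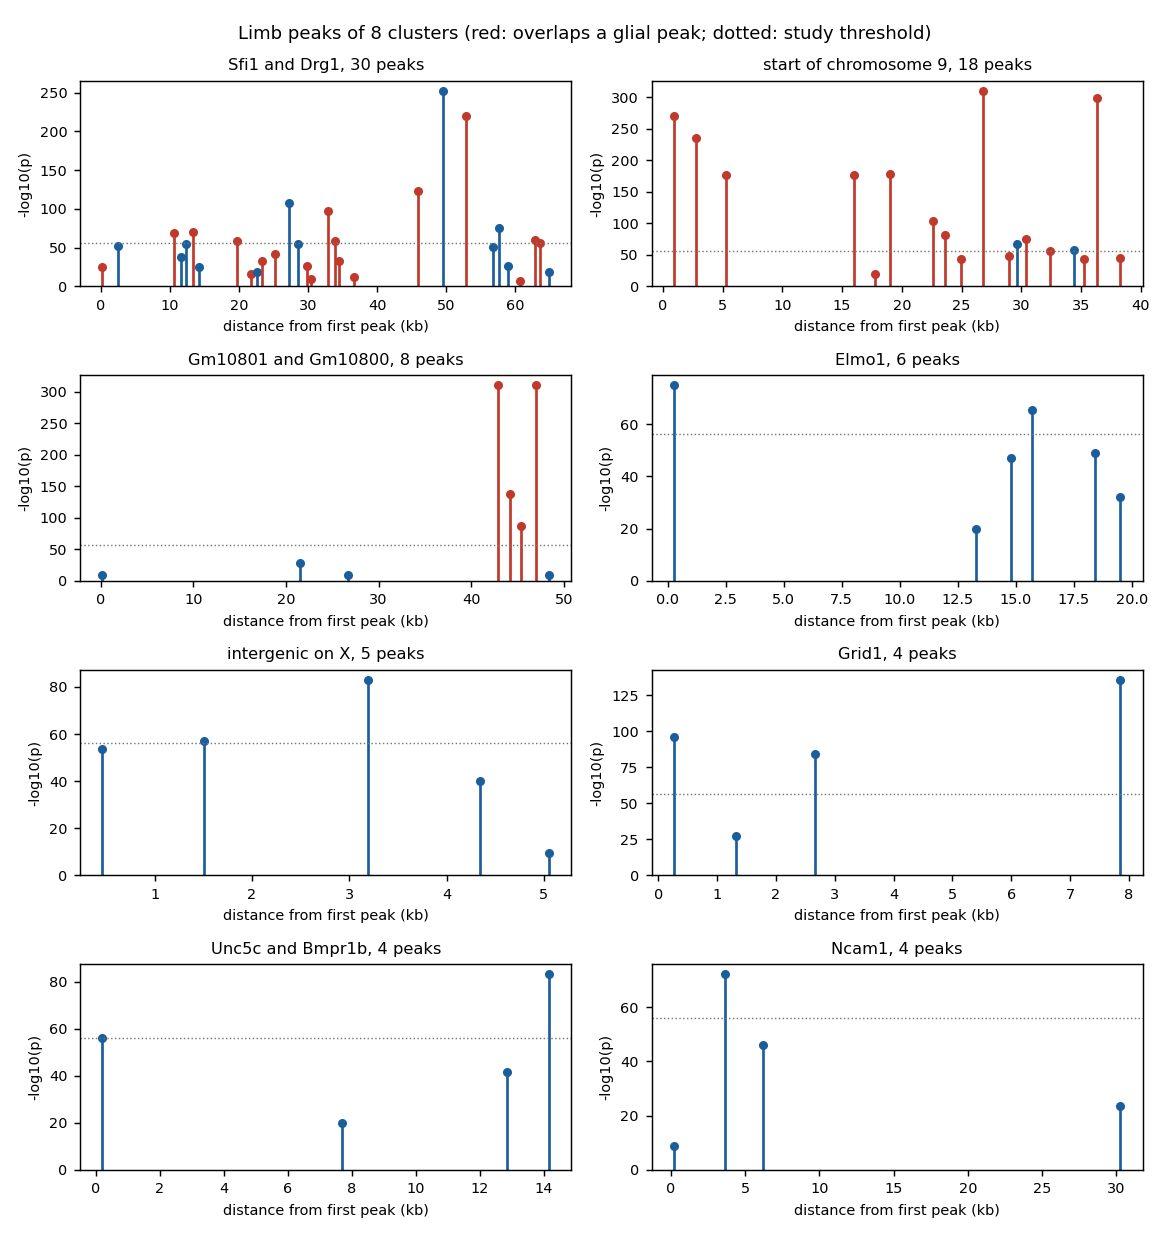
Each panel shows the limb peaks of 1 cluster as stems, with the distance from the first peak in kb on the horizontal axis and −log10(p) on the vertical axis; scales differ between panels. Red stems overlap a glial peak (18 of 30 at *Sfi1*, 16 of 18 on chromosome 9, 4 of 8 on chromosome 2 and 0 in the other 5 panels), and the dotted line is the study threshold.

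After the 3 largest, the next clusters by number of peaks that are described here lay inside *Elmo1*, *Cntnap5c*, *Grid1* and *Dcc*, over the ends of *Unc5c*, *Bmpr1b* and *Dtl*, or between genes. The 6 peaks at *Elmo1* (chromosome 13, 20505472 to 20525177) had −log10(p) of 74.9, 19.7, 47.1, 65.5, 49.1 and 31.9 from left to right. All 6 lay in introns of the gene, the first 12.4 kb from the others. An intergenic cluster of 5 peaks on X (58250146 to 58255424), with *Sox3*, an HMG-box transcription factor, as the nearest gene at 103.5 kb, had values of 53.5, 57.2, 83.1, 40.2 and 9.54. It spanned only 5.28 kb.

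The 5 peaks at *Cntnap5c*, a contactin-associated protein gene, were weaker, with −log10(p) of 34.0, 56.1, 27.1, 47.1 and 18.5, and none reached the study threshold. At *Grid1* (a glutamate receptor of the delta family) the 4 peaks had 95.7, 27.5, 84.3 and 136. These were the strongest of the clusters of 4, with 3 peaks at the threshold. At *Dcc*, the netrin receptor of growing axons, the 4 values were 56.3, 12.6, 109 and 28.7, all in introns. Near *Bcl11b*, a zinc-finger transcription factor 35.0 kb away, they were 132, 9.59, 60.1 and 48.9. At *Grid1*, at *Dcc* and near *Bcl11b* the weakest peak was the second from the left.

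The cluster of 4 peaks on chromosome 3 (141492972 to 141507353) lay at the facing 3′ ends of *Unc5c*, another netrin receptor, on the plus strand, and *Bmpr1b* on the minus strand. The first peak, with −log10(p) of 56.3, fell in the 3′ UTR of *Unc5c*. The second, with 19.8, fell in the 3′ UTR of *Bmpr1b*, and the third, with 41.5, covered the end of its coding sequence and the start of its 3′ UTR. The fourth and strongest, with 83.3, lay in an intron. Repeated words made up 0 to 1.97% of these peaks, and no glial peak lay in the span.

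At *Dtl*, a substrate receptor of a ubiquitin ligase that acts in DNA replication, the 4 peaks were spread over 37.7 kb with values of 110, 49.4, 8.23 and 24.1, and only the last of them lay inside the gene. A further 7 clusters of 4, named here after their values were seen, were at *Dmxl2*, *Unc5d*, *Gria3*, *Ncam1* and *Rabep1* and between genes, with *Lrig3* the nearest at 291 kb and *Tspan7* at 16.3 kb. In each of these 7 exactly 1 peak reached the study threshold.

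The clusters with the highest summed −log10(p) after the 3 largest were those at *Tcte2*, with 48.8, 112 and 237, and at *Capn2*, which encodes the calcium-dependent protease calpain 2. At *Tcte2* the stronger 2 peaks held 79.4% and 89.6% repeated words and overlapped glial peaks, while the weakest held none. *Capn2* had a pair, 1 peak of 52.3 over a coding exon and 1 of 310 in an intron 9.27 kb away. In all, 9 peaks of the limb list had the top value of 310 and 5 of them were clustered, 3 of these in the 3 largest clusters. A value shared by 9 peaks may be a ceiling of the score in the limb list, which was not tested. In the glial list the highest value of a clustered peak was 317. If 310 is a ceiling, sums that include it, as at *Capn2*, are lower limits, and their order among the clusters is not fixed. Of the 100 strongest peaks 39 were clustered, where 21.7% of all limb peaks were. The 3 largest clusters held 15 of the 39, of which 13 overlapped a glial peak, and 24 lay in other clusters. The peak over the *LncRNA-HIT* gene itself (chromosome 6, 52206123 to 52207602), where all 25 probes match, also had 310 but was not clustered, since the next limb peak lay 1487 kb away.

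Genes of the BMP pathway and of condensation were looked up in fixed lists. A limb peak lay within 25 kb of 9.98% of 22208 protein-coding genes, and a clustered limb peak within 25 kb of 1.20%, or 267 of the 2217 genes with a limb peak. Of 29 BMP pathway genes 4 had a limb peak and 2 a clustered one. Besides *Bmpr1b* this was *Smad6*, an inhibitor of BMP signalling inside the cell, with 2 intronic peaks of 28.3 and 13.7. Of 20 genes of condensation and adhesion, 4 had a limb peak and 2 had clustered ones. *Ncam1* held 4 intronic peaks over 30.5 kb, with −log10(p) of 8.72, 72.3, 46.0 and 23.4 in order. *Cdh11*, the cadherin of mesenchyme, had a pair of 93.1 and 61.7 at 18.2 and 17.6 kb beyond its 3′ end.

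None of the 47 limb patterning genes, 25 cartilage matrix genes or 21 chondrogenic transcription factors had a clustered peak, although 8, 6 and 3 of them had a limb peak within 25 kb. At the background of 1.20%, a list of 47 genes would hold fewer than 1. A list of genes near peaks, selected for expression assays, was drawn from these same peaks and is no separate evidence. All of its 40 annotated genes had a limb peak and 11 had clustered peaks, to be read against the 267 of 2217 protein-coding genes with a limb peak. Besides *Bmpr1b*, *Dtl*, *Ncam1* and *Cdh11* these included *Acss3*, an acyl-CoA synthetase gene, with 18.3, 92.8 and 206, *Akap6*, a gene for an anchor of protein kinase A, with 73.9, 20.4 and 47.0, and pairs at *Rbms3*, *Trio*, *Pde11a* and *Mctp1*. In each of these 4 pairs 1 peak was at the study threshold (78.2, 100, 80.0 and 99.1) and 1 below it (50.1, 30.9, 54.3 and 12.9).

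The peaks of a cluster had unequal scores. Ordering them by score fixes which is higher, so the following values are a description. Among the 187 pairs the stronger peak had a median −log10(p) of 58.1 (quartiles 35.8 and 77.0) and the weaker 21.6 (13.4 and 39.0). In 84 pairs (44.9%) the weaker value was below 50% of the stronger. Both peaks were at the study threshold in 16 pairs, 1 in 82 and neither in 89. Clusters of 3 had medians of 57.7, 38.6 and 15.5 for the strongest, middle and weakest peak. At least 1 peak reached the threshold in 138 of 247 clusters (55.9%), and these 138 also held 184 peaks below it.

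As a group the clustered peaks were somewhat stronger than the rest. Their median −log10(p) was 40.6 (quartiles 19.7 and 61.8, 621 peaks), against 33.6 (17.1 and 56.7) for the 2235 peaks without a neighbour. At the study threshold were 197 of them (31.7%, interval 28.2 to 35.5), against 26.9% of all limb peaks and 25.5% (23.7 to 27.4) of those without a neighbour. Without the 3 largest clusters the median was 38.6 and the share 29.9% (26.3 to 33.8). Width did not set them apart, with a median of 408 bp in both groups, nor did base composition, with a median of 43.8% G or C against 44.2%. In the glial list, too, clustered peaks had the higher median −log10(p), 36.1 against 30.7 for glial peaks without a neighbour. There 28.9% of clustered peaks and 21.7% of peaks without a neighbour were at the study threshold.

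Repeated sequence was rare in most clustered peaks but more frequent than in the rest. The median share of repeated 24-base words was 1.96% against 0.732% in peaks without a neighbour. In 41 clustered peaks (6.60%, 4.90 to 8.83) the share was 50% or more, against 2.64% (2.05 to 3.39) of peaks without a neighbour, and outside the 3 largest clusters it was 20 of 565 (3.54%, 2.30 to 5.40). In the glial list 8.73% of clustered peaks and 3.81% of peaks without a neighbour had 50% or more repeated words. The glial medians were 1.58% and 1.56%. In 124 of the 247 limb clusters every peak had under 10% repeated words. The part of repeated sequence in the clustering was not tested, and with all peaks of 50% or more repeated words left out 568 peaks in 232 clusters remained.

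The share of peaks in genes was higher among clustered peaks as a whole, but not among pairs. A gene body was overlapped by 346 of them (55.7%, 51.8 to 59.6), against 48.8% of all limb peaks and 46.8% (44.8 to 48.9) of peaks without a neighbour, and by 295 of 565 (52.2%, 48.1 to 56.3) without the 3 largest clusters. With a gene body within 25 kb counted, the share was 69.9% of clustered peaks (66.2 to 73.4) and 69.3% of peaks without a neighbour (67.3 to 71.1). By cluster size, gene body overlap was 46.8% of the 374 peaks in pairs (41.8 to 51.9), close to peaks without a neighbour, 58.5% in clusters of 3 (49.7 to 66.9) and 70.6% in clusters of 4 to 6 (58.9 to 80.1). Peaks of 1 cluster often lie in the same gene and these peaks come from 187, 41 and 16 clusters, so the intervals, which treat peaks as independent, are too narrow and no trend with size is read from them. Of the 346 peaks in genes, 260 lay outside exons against 86 that overlapped an exon (13.8%, 11.4 to 16.8). That exon share compares with 10.6% of all limb peaks and 9.75% of peaks without a neighbour, and it was 9.91% outside the 3 largest clusters. A transcript start lay within 1 kb of 66 clustered peaks (10.6%), against 6.69% of all limb peaks, 5.59% of peaks without a neighbour and 5.66% of clustered peaks outside the 3 largest clusters, which held 34 of the 66.

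In 103 of the 247 clusters (41.7%) all peaks lay in 1 protein-coding gene, and in another 24 the span overlapped a protein-coding gene without holding every peak in it. The 105 genes that held a whole cluster had a median length of 162 kb (quartiles 53.2 and 387), against 99.8 kb (39.2 and 250) for 912 genes that held a peak without a neighbour and no whole cluster and 15.5 kb for all protein-coding genes. Gene length was not taken into account in the shares above.

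**Figure D4:**
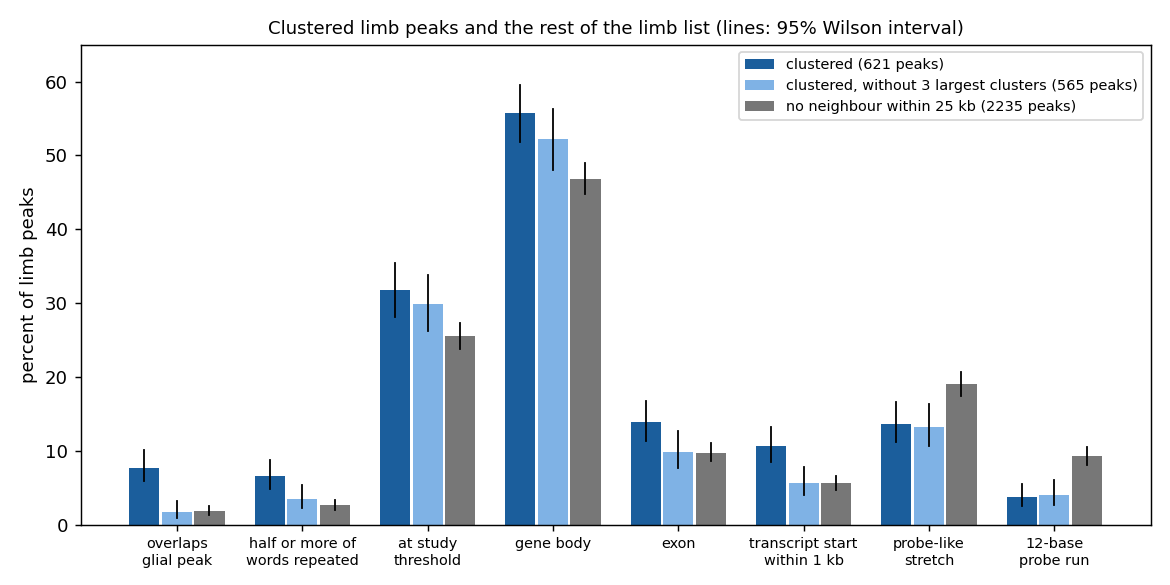
Percent of limb peaks with each feature among all 621 clustered peaks (dark blue), the 565 outside the 3 largest clusters (light blue) and the 2235 without a neighbour within 25 kb (grey), with 95% Wilson intervals as lines. For glial overlap, exons and transcript starts the light blue bar falls to the grey bar, and for both kinds of probe match the clustered peaks are the lower ones.

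Probe-like sequence was less frequent in clustered peaks. A stretch that matched at least 15 of the 20 bases of a probe on either strand, without gaps, was found in 85 of 621 clustered peaks (13.7%, interval 11.2 to 16.6), against 17.9% of all limb peaks and 19.1% (17.5 to 20.7) of peaks without a neighbour. A run of 12 bases identical to a probe was found in 23 (3.70%, 2.48 to 5.50), against 8.05% of all limb peaks and 9.26% (8.13 to 10.5) of peaks without a neighbour. Neither share moved much without the 3 largest clusters, at 13.3% and 4.07%. In clusters of 4 to 6 peaks 4 of 68 peaks had a probe-like stretch (5.88%, 2.31 to 14.2).

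The share of limb peaks with a probe-like stretch was lowest where peaks lay closest together and did not rise steadily with distance. With the nearest limb peak 1 kb or less away, 19 of 215 peaks (8.84%, 5.73 to 13.4) had a probe-like stretch, and without the 3 largest clusters 10 of 170 (5.88%, 3.23 to 10.5). From 1 to 5 kb it was 34 of 209 (16.3%, 11.9 to 21.9), from 5 to 10 kb 18 of 95 (18.9%, 12.3 to 28.0), from 10 to 25 kb 14 of 102 (13.7%, 8.36 to 21.7), and from 25 to 100 kb, outside the rule, 75 of 348 (21.6%, 17.6 to 26.2). The share with 12 consecutive bases identical to a probe was 2.79% at 1 kb or less, 3.83% from 1 to 5 kb, 2.11% from 5 to 10 kb, 6.86% from 10 to 25 kb and 10.6% from 25 to 100 kb. The closest peaks had the highest median −log10(p), 48.5, and the medians at these larger distances were 35.4, 42.7, 29.4 and 33.4 in the same order.

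**Figure D5:**
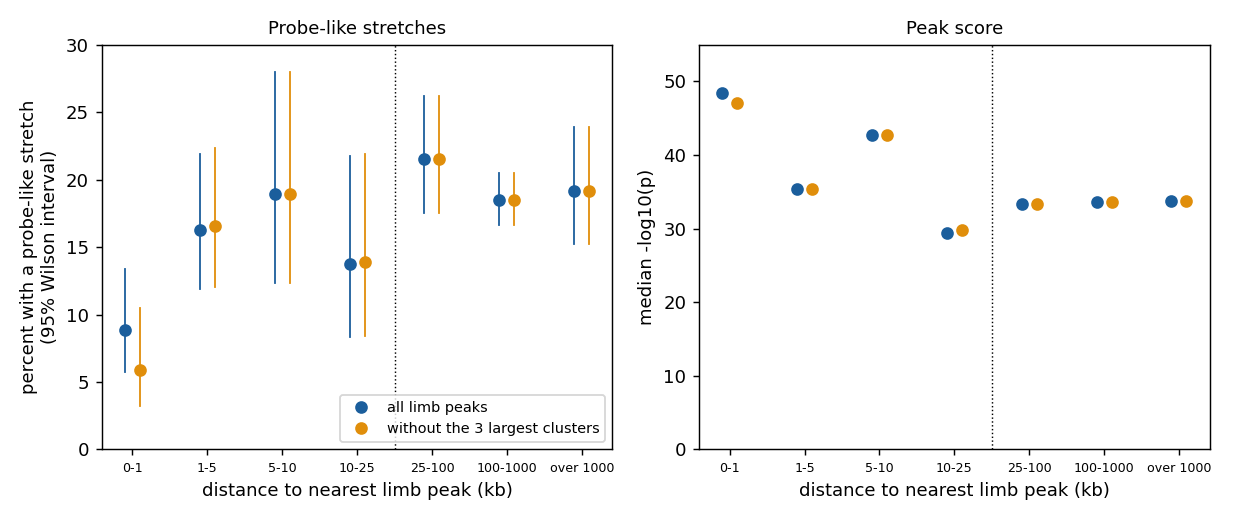
Limb peaks by the distance to the nearest other limb peak in kb, for all limb peaks (blue) and without the 3 largest clusters (orange): percent with a probe-like stretch with its 95% Wilson interval (left) and median −log10(p) (right). The dotted line marks 25 kb, and the group at 1 kb or less has the lowest share, 8.84%, and the highest median, 48.5.

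Examples of probe-like stretches at named clusters are given below their probe, read on the strand of the probe, with the bases identical to the probe in capitals. They are shown so that the extent of such a match can be judged.
Probe 19, odd set: actctagagttaggaaggta
*Bmpr1b*, peak 4, minus strand, chr3:141507178-141507197: tCTCTAGAGTTAGaAAGaaA
Probe 12, even set: atcttcactcgtcagcaatt
*Elmo1*, peak 1, plus strand, chr13:20505694-20505713: ATtcTCACTCtgCAGCAgTT
Probe 1, odd set: catttgccacagggagtctg
*Slit3*, peak 2, minus strand, chr11:35269354-35269373: tgTTccCCACAGGGAGTCTa
*Slit3*, peak 3, minus strand, chr11:35277669-35277688: CtggTGgCACAaGGAGTCTG

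The match at *Bmpr1b* covers 16 of 20 bases and that at *Elmo1* 15. *Slit3*, a secreted guidance protein chosen here after its values were seen, had 3 intronic peaks of 58.4, 80.8 and 68.2, all at the study threshold, and 2 of them hold a stretch like probe 1 with 15 of 20 bases. In the clusters of 4 peaks at *Grid1*, *Ncam1*, *Dtl* and *Dcc* and near *Bcl11b*, and in that of 5 near *Sox3*, no stretch of this kind was found, although 1 of the 2 peaks of another cluster inside *Grid1* held one.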

How the data were processed

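ChIRP-seq libraries of E 11.0 limb and of a glial line, 1 odd, 1 even and 1 input each, were used as the 2 peak lists that the authors deposited. The authors aligned reads to mm9 with Bowtie 0.12.9, kept unique placements, scaled by total reads, merged both probe sets by their minimum per position, and ran MACS against input (version not given in the sources used here). The deposited score is 10 times −log10(p) and was divided by 10 here. Clusters, members and gene lists were chosen with earlier results of these data known.

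Peaks with a gap of 25 kb or less were chained. Even placement was computed per chromosome in closed form, checked on simulated data. Genes are those of the GENCODE mm9 annotation. Named genes are those at the 12 clusters with most peaks, at the 5 clusters with the highest summed −log10(p), and those of the fixed lists within 25 kb of a clustered peak, with *Igfbp5* named for the widest gap; others are marked as chosen after their values were seen. A gene that this rule names is not reported here. Intervals are 95% Wilson intervals, which treat peaks as independent. The probe search recovered planted matches. Signal tracks were not used here. Python 3.11.15, numpy 2.4.6, scipy 1.17.1, numba 0.67.0 and matplotlib 3.10.9 were used.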

Additional observations from a re-analysis of the deposited data

How the results depend on the processing

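With a limit of 100 kb the number of clustered peaks was 969 in 390 clusters, and 5.26% of them overlapped a glial peak. With only the peaks at the study threshold 93 peaks in 34 clusters remained, of which 29.0% overlapped a glial peak (3.26% of the other peaks at the threshold), 60.2% a gene body (49.4%) and 18.3% had a probe-like stretch (21.5%), with a median −log10(p) of 82.0 and a median of 6.46% repeated words. With the strongest peak of each cluster alone, glial overlap was 2.83%, gene body overlap 51.0% and the median −log10(p) 60.6. Leaving out the 3 largest clusters, an alternative chosen after seeing the data, lowered glial overlap to 1.77%. Counting a glial peak within 1 kb gave 11.1% against 1.92% of peaks without a neighbour, and a run of 12 identical bases 3.70% against 9.26%. A gene body within 25 kb gave 69.9% against 69.3%, so the difference in gene overlap was not seen with this measure. The order of clustered peaks and the rest for probe-like stretches was kept at limits of 10, 50 and 100 kb (13.7%, 14.9% and 16.5% against 18.8%, 18.9% and 18.6%). The other alternatives run on the counts kept them within 1.5 times, and the others run on the shares and medians kept those within their 95% intervals. Shares and medians were not computed with glial-overlapping or repeated peaks left out, with distance between centres, or with chromosomes Y and M added. No paired analysis was possible because each tissue has 1 merged list. Without replicates, and with read depth not examined, it cannot be told whether a weak neighbour would be called again.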

Other observations

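Peaks outside chromosomes 1 to 19 and X were not members. On chromosome Y, 19 of the 21 limb peaks lay in 2 clusters of 4 and 15 peaks, of which 4 and 14 overlapped a glial peak, and the median share of repeated words was 84.8% and 72.1%. The 3 limb peaks on the mitochondrial sequence all overlapped a glial peak. Peak edges followed a grid of 25 bp: 98.2% of limb peaks and 98.4% of glial peaks began at 5 of the 25 possible positions, so gaps within clusters are resolved to about 25 bp.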
